A study of Mus musculus with 9 samples.

Results

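Cytochrome P450 (CYP) enzymes are heme-containing monooxygenases, and 93 of the 22180 genes tested here carried a symbol of this superfamily. Members were set by a rule on the symbol: Cyp, a family number, a subfamily letter and a gene number, with symbols ending in ps left out. They were chosen with earlier results of these data known, so counts of members describe them. The symbol Cyp4b1-ps2 stayed in by the letter of that rule, and RefSeq classes it and Cyp2d13 as transcribed pseudogenes, while Cyp51 and Cyp2ab1 fell outside it. Gene expression was measured in TAMH cells on 9 Affymetrix Mouse Gene 2.1 ST arrays. TAMH is a hepatocyte line from mice that carry a transgene for transforming growth factor alpha. There were 3 groups of 3 arrays, all harvested at 9 h: cells in medium alone (CON), cells given 18 µM diquat (DQ) and cells given 126 µM paraquat (PQ). Both compounds are bipyridylium herbicides that accept single electrons from cellular reductases and pass them to oxygen. All groups, controls included, were grown with dexamethasone, nicotinamide, insulin, transferrin and selenium, at passages 30 to 40. The study therefore describes 1 cell line under 1 culture condition, with dexamethasone, a glucocorticoid, present throughout. The labels' protocol names 3 dishes for each treatment without stating that they came from separate cultures. The p-values therefore reflect only how far these dishes spread, and that spread may be technical.

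CYP enzymes take electrons from a reductase and insert 1 oxygen atom into a substrate. Families 1 to 3 are best known in liver for oxidizing drugs and other foreign compounds, and many of their genes are switched on by ligand-activated receptors such as AHR, CAR and PXR. Other families act on fatty acids, cholesterol and bile acids, steroid hormones, retinoids and vitamin D. Cultured hepatocytes and liver cell lines commonly hold much less CYP mRNA than liver does.

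Each value is a log2 expression level from RMA, which subtracts background, puts the arrays on a common distribution and combines the probes of a feature, so a difference of 1 is a doubling. Over the whole table values ran from 3.89 to 13.19 with a median of 6, and array medians lay between 5.95 and 6.04. Correlations between arrays lay between 0.9952 and 0.9991. Levels of different genes are not compared, because each gene has its own probes. The 93 genes were read on 97 features, with the feature of the highest mean kept for the 4 genes that had several. Of the 93, 24 had a mean over the 9 arrays above 6 and 69 did not, and values this low could not be separated from background with the files used here. The labelled cell type was checked against hepatocyte markers. All 9 of the 10 listed markers that were measured lay above 6, and albumin (Alb) ranged from 12.68 to 12.81 over the 9 arrays. Markers of other liver cells were less uniform: 5 of 5 measured cholangiocyte, 3 of 5 macrophage, 3 of 5 stellate cell and 1 of 5 endothelial markers had a mean above 6. Over all genes tested, 13122 of 22180 did. Because every measured cholangiocyte marker passed as well, these counts do not set hepatocytes apart from cholangiocytes.

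Calls were few among the CYP genes, as they were over all genes. With diquat, 4 of 93 fell and 0 rose (4.3%) at an adjusted p under 0.05 in limma, against 7.02% of all genes tested (4.13% higher and 2.89% lower). The 4 were Cyp2d22, Cyp2s1, Cyp26c1 and Cyp11a1. With paraquat, 1 of 93 fell, Cyp2d22 again, and 0 rose (1.08%), against 4.57% of all genes (2.33% higher and 2.24% lower). Both comparisons used the same 3 control arrays, so a fall in both is not counted as 2 independent observations. At an unadjusted p under 0.05, 1 member was higher and 12 were lower with diquat, against 10.5% and 11.1% of all genes. With paraquat 1 was higher and 9 were lower, against 6.95% and 8.08%. In bulk RNA, fewer cells of a type and less RNA per cell cannot be told apart, which holds for every change given here. Over all genes the diquat calls held 917 higher of 1558, 1073 of 1384 with arrays centred on their medians and 840 of 1859 with quantile normalization. Under both of those scalings 0 members were called higher.

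The size of the differences was also small. Members' log2 differences ran from −0.4067 to 0.2233 with diquat, with a median of −0.04 beside −0.0167 over all genes. With paraquat they ran from −0.4167 to 0.1433, with a median of 0.0033 beside −0.0033. With diquat 67 members were lower and 26 higher, where 12729 of all genes were lower and 9094 higher. With paraquat 46 were lower and 47 higher, where 11215 of all genes were lower and 10456 higher. Every one of the 93 members had a 95% interval inside a 1.5-fold change in either direction, for diquat and for paraquat. The interval lay inside a 1.2-fold change for 73 members with diquat and 76 with paraquat. For the 69 members at or below 6 these intervals bound the array value, which could not be separated from background. Groups without overlap between arrays were counted too: 1 member was above and 10 were below control with diquat, against 10.1% and 11.2% of all genes. With paraquat 5 were above and 9 below, against 9.05% and 10.4%.

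The counts were then split by signal level. Among the 24 members above 6, 1 was called with each compound (4.17%), against 11.4% (diquat) and 7.53% (paraquat) of the 13122 genes above 6. Among the 69 at or below 6, 3 were called with diquat (4.35%) and 0 with paraquat, against 0.64% and 0.287% of 9058 such genes. At an unadjusted p under 0.05 those 69 gave 8 with diquat and 5 with paraquat, all of them lower, against 8.15% and 3.42% of the 9058 (6.44% and 1.71% lower). Genes at or below 6 sat slightly lower with diquat as a whole, with a median of −0.0233 and 5883 of 9058 lower. Whether this shift had a part in the diquat calls of the 3 dim members was not tested. With arrays centred on their medians the members' median difference with diquat was −0.005, beside 0.0183 over all genes.

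**Figure D1:**
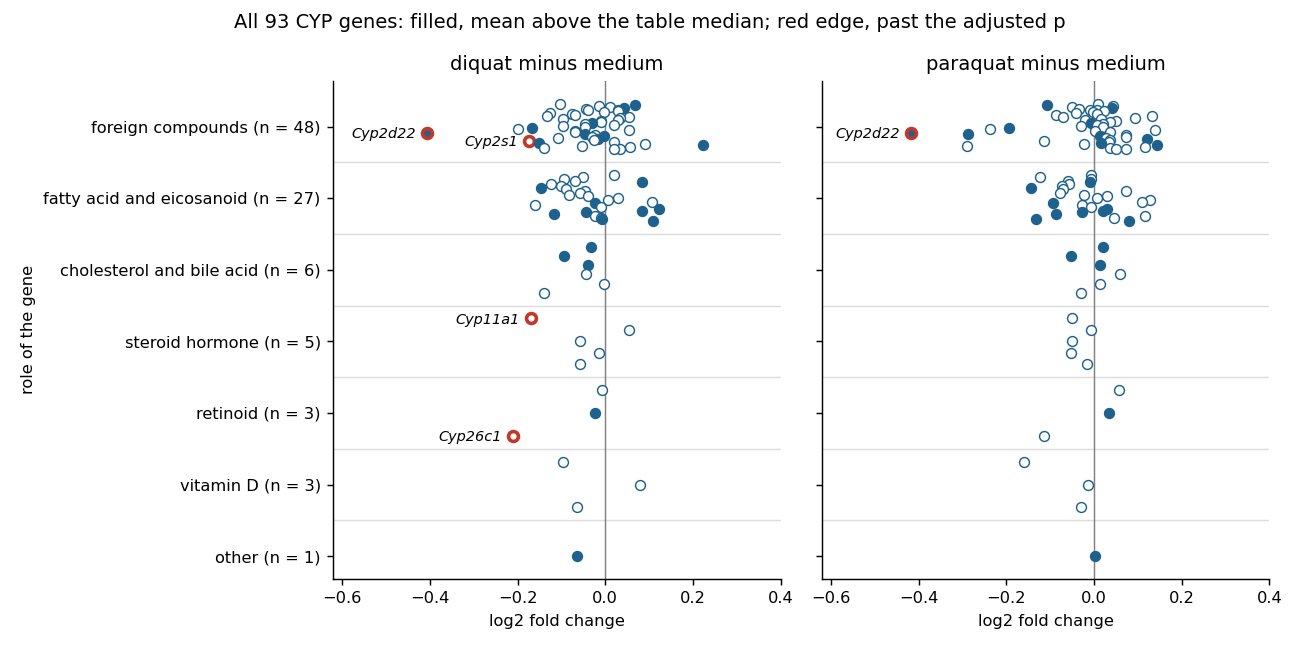
Each point is 1 of the 93 CYP genes, placed by its log2 fold change (x axis) and its role (y axis), for diquat minus medium (left) and paraquat minus medium (right); filled points have a mean above 6 and red edges mark an adjusted p under 0.05. The 4 diquat calls and the 1 paraquat call all lie left of 0, and nearly all other points lie within 0.3 of it.

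The CYP gene with the largest change was Cyp2d22, a member of the Cyp2d subfamily whose human relative CYP2D6 oxidizes many drugs. Its log2 level was 8.71, 8.74 and 8.63 in medium, 8.25, 8.23 and 8.38 with diquat, and 8.37, 8.16 and 8.30 with paraquat. All 6 treated arrays lay below all 3 control arrays, and the diquat and paraquat arrays overlapped. With diquat the log2 difference was −0.41 ± 0.06 (SE), with a 95% interval from −0.54 to −0.27, a 1.33-fold fall with a limma adjusted p of 0.00349. With paraquat it was −0.42 ± 0.06, from −0.55 to −0.28, also a 1.33-fold fall, with an adjusted p of 0.00368. Leaving out each array in turn kept both calls, with adjusted p-values up to 0.0223 for diquat and 0.0251 for paraquat. Tested against a fold of at least 1.2 in place of no change, neither call remained (adjusted p = 1 for each). Several hepatocyte markers fell in the same arrays: their summed log2 level over 9 genes was 90.19 to 90.82 in medium, 87.61 to 87.97 with diquat and 87.81 to 89.27 with paraquat. Of the 9, 6 fell with diquat and 3 with paraquat, against 2.89% and 2.24% of all genes, while Alb differed by −0.01 with each. All 9 had a mean above 6, where 600 and 480 of 13122 genes fell. The cholangiocyte markers summed to 41.64 to 41.98 in medium, 42.03 to 42.08 with diquat and 42.1 to 42.36 with paraquat over 5 genes: with diquat 1 (Sox9) rose and 2 fell, and with paraquat 1 (Sox9) rose. Of 5 macrophage markers 1 (Cd68) rose with diquat and 0 with paraquat, and 0 fell. None of the 5 stellate cell and 5 endothelial markers was called with either compound. Over all genes 4.13% were higher and 2.89% lower with diquat, and 2.33% and 2.24% with paraquat. The part of these marker changes in the Cyp2d22 result was not tested.

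**Figure D2:**
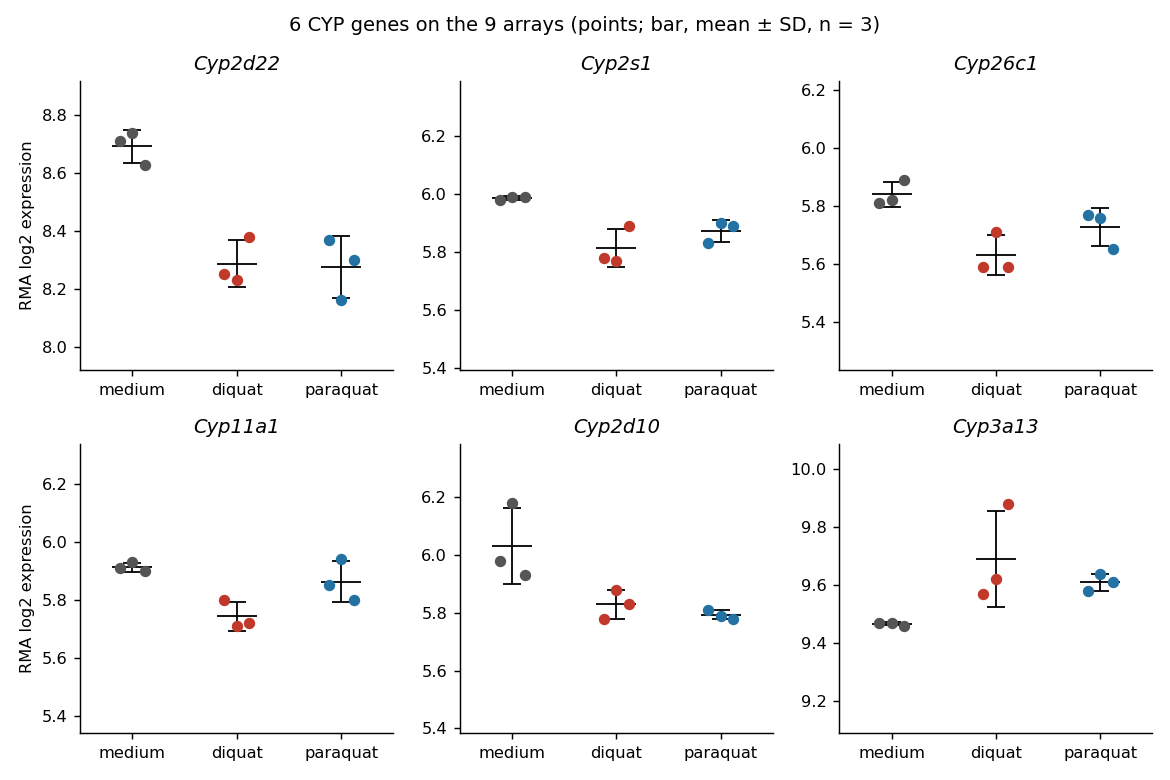
Points give the RMA log2 expression (y axis) of 6 CYP genes on each of the 9 arrays by group, with bars for the mean ± SD (n = 3); each panel has its own y axis. The Cyp2d22 control arrays (8.63 to 8.74) stand clear of all treated arrays (8.16 to 8.38), while the steps for Cyp2s1, Cyp26c1 and Cyp11a1 are 0.17 to 0.21 with diquat.

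The 3 other diquat calls were of dim features. Cyp2s1, an enzyme of epithelia that acts on retinoids and foreign compounds, read 5.98, 5.99 and 5.99 in medium, 5.78, 5.77 and 5.89 with diquat, and 5.83, 5.90 and 5.89 with paraquat. All 6 treated arrays were below the controls. It fell by 0.17 ± 0.04 on the log2 scale with diquat (limma adjusted p = 0.0323). With paraquat the difference was −0.11, from −0.20 to −0.02, with an adjusted p of 0.2. The diquat call ended without CON replicate 1 (adjusted p = 0.0922), CON replicate 2 (0.108), CON replicate 3 (0.0914), DQ replicate 1 (0.101), DQ replicate 2 (0.0668) or PQ replicate 3 (0.0514). It also ended with arrays centred (0.138), with quantile normalization (0.0933) and with the paraquat arrays left out of the fit (0.0718).

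Cyp26c1 is one of the enzymes that clear retinoic acid. It read 5.81, 5.82 and 5.89 in medium, 5.59, 5.71 and 5.59 with diquat, and 5.77, 5.76 and 5.65 with paraquat, so both treated groups lay below the controls. It fell by 0.21 ± 0.05 on the log2 scale with diquat (limma adjusted p = 0.03), and with paraquat the difference was −0.11 with an adjusted p of 0.304. The diquat call ended without CON replicate 1 (0.0698), CON replicate 2 (0.0836), CON replicate 3 (0.106), DQ replicate 1 (0.0994) or DQ replicate 3 (0.0807). It also ended with arrays centred (0.0509) and in the fit of the groups compared (0.0574).

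Cyp11a1 cleaves the side chain of cholesterol to start steroid synthesis, chiefly in adrenal and gonad. It read 5.91, 5.93 and 5.90 in medium, 5.80, 5.71 and 5.72 with diquat, and 5.85, 5.94 and 5.80 with paraquat. The diquat arrays lay below the controls and the paraquat arrays overlapped them. The fall with diquat was 1.13-fold, −0.17 ± 0.04 on the log2 scale (limma adjusted p = 0.0461), and the paraquat difference was −0.05 (0.722). A second, dimmer feature of Cyp11a1 differed by −0.02 with diquat (adjusted p = 0.895), so the features of this gene disagreed. Leaving out CON replicate 1 (0.124), CON replicate 2 (0.153), CON replicate 3 (0.102), DQ replicate 2 (0.0864), DQ replicate 3 (0.103) or PQ replicate 1 (0.0687) ended the call. So did the replicate block (0.0649), a variance trend (0.0537), centring (0.109), quantile normalization (0.071), the fit of the groups compared (0.0556), array weights (0.0579) and the mean of its features (0.253). Cyp2d22 was therefore the member whose diquat call was kept whichever single array was left out.

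The promoters of the 3 dim genes called with diquat, and of a pair of AHR targets taken up below, are shown beside the array results for those genes. AHR is a ligand-activated transcription factor that binds GCGTG together with ARNT, and Cyp1a1, Cyp2s1 and Tiparp are known targets of it. Each line holds the 250 bases before a transcription start, 5′ to 3′ on the gene's strand, from RefSeq on GRCm38.p6. Capitals mark GCGTG (or CACGC, its complement), the TATA box TATAAA and the nuclear receptor half-site AGGTCA, each searched on both strands.
Cyp2s1 (chr7:25816526-25816775, minus strand): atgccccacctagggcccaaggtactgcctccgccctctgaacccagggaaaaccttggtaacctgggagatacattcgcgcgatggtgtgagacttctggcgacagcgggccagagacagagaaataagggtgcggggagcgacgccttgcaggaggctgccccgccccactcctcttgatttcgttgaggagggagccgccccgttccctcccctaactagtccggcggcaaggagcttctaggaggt
Cyp26c1 (chr19:37685430-37685679, plus strand): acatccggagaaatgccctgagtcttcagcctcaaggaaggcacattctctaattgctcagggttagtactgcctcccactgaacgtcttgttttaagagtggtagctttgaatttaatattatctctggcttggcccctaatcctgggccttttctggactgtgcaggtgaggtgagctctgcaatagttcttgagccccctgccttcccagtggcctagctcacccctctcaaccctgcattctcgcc
Cyp11a1, second start (chr9:58014702-58014951, plus strand): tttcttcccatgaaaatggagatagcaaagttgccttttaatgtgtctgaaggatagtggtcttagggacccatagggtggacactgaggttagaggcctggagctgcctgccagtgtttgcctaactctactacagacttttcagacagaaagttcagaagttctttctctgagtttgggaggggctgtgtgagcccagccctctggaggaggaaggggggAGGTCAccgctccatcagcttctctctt
Cyp1a1 (chr9:57697363-57697612, plus strand): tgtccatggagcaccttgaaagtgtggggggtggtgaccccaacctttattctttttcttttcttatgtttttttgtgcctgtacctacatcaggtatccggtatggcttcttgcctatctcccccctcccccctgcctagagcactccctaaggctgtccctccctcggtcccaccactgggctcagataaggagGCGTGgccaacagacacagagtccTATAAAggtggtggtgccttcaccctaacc
Tiparp (chr3:65528197-65528446, plus strand): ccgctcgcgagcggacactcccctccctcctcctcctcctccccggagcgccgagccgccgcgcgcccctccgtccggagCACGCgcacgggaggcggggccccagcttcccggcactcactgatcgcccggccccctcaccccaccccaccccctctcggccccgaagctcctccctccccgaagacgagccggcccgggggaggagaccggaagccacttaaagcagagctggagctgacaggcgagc

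The Cyp1a1 window held TATAAA 30 to 25 bases and GCGTG 54 to 50 bases before the start, and the Tiparp window held GCGTG on the other strand 170 to 166 bases before it. In the second Cyp11a1 window AGGTCA lay 28 to 23 bases before the start. The first Cyp11a1 window, which is not shown, held none of the motifs searched, and neither did those of Cyp2s1 and Cyp26c1. RefSeq windows were matched for 70 of the 93 members, 78 windows in all, and Cyp2d22 is among the 23 unmatched. TATAAA was in 30.8% of the members' windows and in 12.4% of all 32851 windows. AGGTCA was in 23.1% of the members' windows and 14% of all, and GCGTG in 19.2% and 28.2%. Also searched on both strands were ATCAAT, the core bound by Onecut factors (12.8% and 6.72%), and TGACTCA, the AP-1 site (5.13% and 4.46%). A match describes the letters and is not a measured binding site, and none of these matches was tied to the array values.

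The receptor-responsive genes of families 1 to 3 are the usual readout of a xenobiotic response in liver. Cyp2s1, an AHR target, fell with diquat as given above, while Cyp1a1, Cyp1a2, Cyp1b1, Cyp2b10 and Cyp3a11 passed the threshold with neither compound. Of all genes 7.02% (diquat) and 4.57% (paraquat) were called. Except for Cyp1a2, with a mean of 6.27, these uncalled genes had means at or below 6. At that level 0.64% and 0.287% of genes were called and values could not be separated from background. The lack of calls therefore does not show whether these genes responded. Cyp1a1, which oxidizes aromatic hydrocarbons, read 5.87, 5.93 and 5.89 in medium, 5.87, 5.87 and 5.64 with diquat, and 5.88, 6.06 and 5.78 with paraquat. The 3 groups overlapped. The difference was −0.10 with diquat, from −0.28 to 0.07, and 0.01 with paraquat, from −0.16 to 0.18. Cyp1a2 and Cyp1b1, the other members of family 1, differed by 0.07 and −0.01 with diquat and by −0.11 and 0.04 with paraquat.

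Tiparp, an AHR target whose product ADP-ribosylates AHR and limits it, was called with both compounds. It read 7.96, 7.87 and 7.96 in medium, 8.49, 8.57 and 8.56 with diquat, and 8.39, 8.30 and 8.30 with paraquat, and all 6 treated arrays were above the controls. With diquat it rose 1.53-fold (limma adjusted p = 3.163e-05), and with paraquat it rose 1.32-fold (adjusted p = 0.000636). A second feature of Tiparp differed by 0.02 with diquat and −0.0033 with paraquat, so its features disagreed. Ahr itself rose by 0.25 on the log2 scale with diquat (adjusted p = 0.0279) and differed by 0.08 with paraquat (0.651). The Ahr call ended without CON replicate 1 (0.0711), CON replicate 2 (0.0971), CON replicate 3 (0.0928), DQ replicate 1 (0.0868) or DQ replicate 2 (0.0569). Ahrr, the AHR repressor and another AHR target, differed by −0.08 and 0.00 and read between 5.49 and 5.70.

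The genes most responsive to CAR and PXR were likewise uncalled. Cyp2b10, the classical CAR target of mouse liver, read 5.22, 5.22 and 5.26 in medium, 5.06, 5.22 and 5.30 with diquat, and 5.22, 5.27 and 5.23 with paraquat. Its differences were −0.04 (from −0.16 to 0.08) and 0.01 (from −0.12 to 0.13). The 5 Cyp2b genes, all at or below 6, differed by −0.1267 to 0.03 with diquat and −0.04 to 0.0233 with paraquat. Cyp3a11, a main PXR target, differed by 0.09 (from −0.05 to 0.23) with diquat and −0.02 (from −0.17 to 0.12) with paraquat. Cyp2e1, the ethanol-inducible enzyme that leaks reactive oxygen, read 5.45, 5.44 and 5.47 in medium, 5.37, 5.35 and 5.32 with diquat, and 5.56, 5.44 and 5.44 with paraquat. The diquat arrays lay below the rest, with a difference of −0.11 (from −0.20 to −0.02, limma adjusted p = 0.163), and the paraquat difference was 0.03 (0.872).

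Cyp3a13, a constitutive Cyp3a enzyme of liver and gut, was the member with the largest positive difference for each compound. It read 9.47, 9.47 and 9.46 in medium, 9.57, 9.62 and 9.88 with diquat, and 9.58, 9.64 and 9.61 with paraquat. The controls were close together and all 6 treated arrays were above them, and DQ replicate 3 stood highest. The diquat difference was 0.22, from 0.07 to 0.38, with a limma adjusted p of 0.0891, and the paraquat difference was 0.14, from −0.01 to 0.30 (0.377). Without DQ replicate 3 the diquat difference was 0.13 (0.0752) and the paraquat difference passed, at 0.14 (0.0345). In the fit of paraquat and control arrays alone the paraquat difference also passed (0.0368). The other 6 Cyp3a members were dim, and Cyp3a16 had the most negative paraquat difference among them: 5.07, 4.90 and 4.90 in medium, 4.82, 4.82 and 5.07 with diquat, and 4.81, 4.59 and 4.60 with paraquat. Its paraquat arrays lay below all others, with a difference of −0.29 and an adjusted p of 0.0953, which passed with array weights (0.0276) and without DQ replicate 3 (0.0436).

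In the Cyp2d subfamily Cyp2d22 was the only one called. Of its 9 members 8 were lower and 1 was higher with diquat, and 3 were lower and 6 higher with paraquat. Cyp2d10 read 5.98, 6.18 and 5.93 in medium, 5.78, 5.88 and 5.83 with diquat, and 5.81, 5.79 and 5.78 with paraquat, with all treated arrays below the controls. Its differences were −0.20 (limma adjusted p = 0.0818) and −0.24 (0.056). The paraquat difference passed with quantile normalization (0.035), array weights (0.0324) and without CON replicate 3 (0.0419). Cyp2d26 read 7.46, 7.54 and 7.70 in medium, 7.51, 7.48 and 7.57 with diquat, and 7.51, 7.14 and 7.19 with paraquat. In the paraquat group replicate 1 lay with the controls and the other arrays below them: the difference was −0.29 with an adjusted p of 0.141, and −0.40 (0.0121) without PQ replicate 1. Cyp2d40 read 6.69 to 7.07 over the 9 arrays and differed by 0.00 with diquat and 0.01 with paraquat. Some genes of this cluster, and of the Cyp2c, Cyp3a and Cyp4a clusters, are near-identical in sequence, so probes of one may bind transcripts of another. Which members this affects was not tested.

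The 14 Cyp2c genes, whose products oxidize drugs and fatty acids, gave 0 calls with either compound, and 1 with each had an unadjusted p under 0.05, against 21.6% and 15% of all genes. It was Cyp2c70, the enzyme that makes muricholic bile acids in mice. It read 7.07, 6.95 and 6.99 in medium, 6.87, 6.80 and 6.84 with diquat, and 6.95, 6.82 and 6.66 with paraquat. Diquat arrays were below the controls, and PQ replicate 1 matched the lowest control. Its differences were −0.17 (limma adjusted p = 0.18) and −0.19 (0.17), and −0.26 (0.0412) for paraquat without PQ replicate 1. Cyp2c29, a retinoid- and drug-metabolizing enzyme of liver, had the largest positive difference between the compounds: it read 5.19, 5.21 and 5.18 in medium, 5.13, 5.20 and 4.85 with diquat, and 5.20, 5.46 and 5.32 with paraquat. Diquat and paraquat arrays met at 5.20, and paraquat minus diquat was 0.27 (from 0.07 to 0.46, adjusted p = 0.4). Against control the paraquat difference was 0.13 (0.588). A second feature of Cyp2c29, with a mean of 5.09, gave 0.01 between the compounds (limma adjusted p = 0.94) and −0.07 for paraquat against control. The features of this gene therefore disagreed. Cyp2c55 read 6.91 to 7.18 and differed by −0.03 and −0.01.

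The 27 genes of fatty acid and eicosanoid metabolism gave 0 calls with either compound, and 3 with diquat and 1 with paraquat had an unadjusted p under 0.05, against 21.6% and 15% of all genes. Their median difference was −0.04 with diquat and −0.01 with paraquat. Of the 27, 9 had a mean above 6, and none of these 9 differed by more than 0.15 in either comparison. Cyp4v3, a fatty acid hydroxylase found in many tissues, read 8.91, 8.84 and 8.85 in medium, 8.81, 8.89 and 8.88 with diquat, and 8.90, 8.59 and 8.71 with paraquat. The groups overlapped, with differences of −0.01 (from −0.16 to 0.14) and −0.13 (from −0.28 to 0.02). Cyp2u1, a hydroxylase of long-chain fatty acids, read 6.38, 6.28 and 6.41 in medium, 6.09, 6.26 and 6.28 with diquat, and 6.26, 6.14 and 6.24 with paraquat. Its differences were −0.15 (limma adjusted p = 0.189) and −0.14 (0.278), and only the paraquat arrays all lay below the controls. Cyp4x1, a relative of unknown main substrate, and Cyp4f16 differed by 0.11 and 0.12 with diquat and by 0.08 and 0.03 with paraquat, with no call. Cyp4f17 read 7.84 to 8.24 and Cyp4f13 read 7.52 to 7.83, and each had overlapping groups. Cyp4a14, a target of the fatty acid receptor PPARα, read 5.06 to 5.30 and differed by −0.06 and −0.08. Cyp4f14, which inactivates leukotriene B4, differed by −0.16 with diquat (0.129). That difference passed with the replicate block (0.0391) and without DQ replicate 2 (0.0498).

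None of the 6 genes of cholesterol and bile acid metabolism was called. With diquat, 1 of the 6 had an unadjusted p under 0.05, and with paraquat 0 had, against 21.6% and 15% of all genes. Cyp39a1, an oxysterol 7α-hydroxylase of liver, read 10.38, 10.24 and 10.39 in medium, 10.13, 10.18 and 10.42 with diquat, and 10.32, 10.26 and 10.27 with paraquat. The groups overlapped and the differences were −0.09 (from −0.25 to 0.07) and −0.05 (from −0.21 to 0.11). Cyp27a1, the mitochondrial sterol 27-hydroxylase of the acidic bile acid route, read 8.26, 8.21 and 8.01 in medium, 8.15, 8.04 and 8.19 with diquat, and 8.19, 8.12 and 8.23 with paraquat. Its differences were −0.03 (from −0.18 to 0.12) and 0.02 (from −0.13 to 0.17). Cyp7a1, the rate-limiting enzyme of the classical bile acid route, read 4.73 to 4.96 and differed by −0.04 and 0.06. Cyp7b1, the oxysterol 7α-hydroxylase of the acidic route, differed by 0.00 and 0.01, and Cyp46a1, the cholesterol 24-hydroxylase best known from brain, by −0.04 and 0.01. Cyp8b1, the sterol 12α-hydroxylase that makes cholic acid, read 5.70, 5.69 and 5.63 in medium and 5.54, 5.59 and 5.47 with diquat. Its paraquat arrays read 5.68, 5.62 and 5.63. Diquat and control arrays did not overlap, and the difference was −0.14 with a limma adjusted p of 0.0771. It passed with array weights (0.0482) and without DQ replicate 2 (0.0425), while the paraquat difference was −0.03 (0.853).

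Of the genes of steroid hormone, retinoid and vitamin D metabolism, 2 of 11 were called with diquat, Cyp11a1 and Cyp26c1 above, and 0 with paraquat. The shares called were 7.02% and 4.57% over all genes, and 0.64% and 0.287% over genes at or below 6. At an unadjusted p under 0.05, 2 of the 11 were lower with diquat and 2 with paraquat, against 11.1% and 8.08% of all genes. Cyp26b1, another retinoic acid hydroxylase and the only one of the 11 with a mean above 6, read 6.62 to 6.79 over the 9 arrays. Its differences were −0.02 (from −0.12 to 0.08) and 0.03 (from −0.07 to 0.13). Cyp24a1, which inactivates vitamin D, read 5.76, 5.67 and 5.79 in medium, 5.58, 5.70 and 5.65 with diquat, and 5.60, 5.57 and 5.57 with paraquat. Only the paraquat arrays lay wholly below the controls, with a difference of −0.16 and a limma adjusted p of 0.0779, which passed with array weights (0.0433). Cyp27b1 and Cyp2r1, the hydroxylases that activate vitamin D, differed by 0.08 and −0.06 with diquat and by −0.01 and −0.03 with paraquat. Cyp17a1, of androgen synthesis, differed by −0.01 and −0.05, and Cyp26a1, a retinoic acid hydroxylase induced by its own substrate, by −0.01 and 0.06. Cyp20a1, an orphan CYP of unknown substrate, read 9.86, 9.86 and 9.84 in medium, 9.82, 9.65 and 9.90 with diquat, and 9.84, 9.86 and 9.87 with paraquat. Its differences were −0.06 (from −0.19 to 0.06) and 0.00 (from −0.12 to 0.13).

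**Figure D3:**
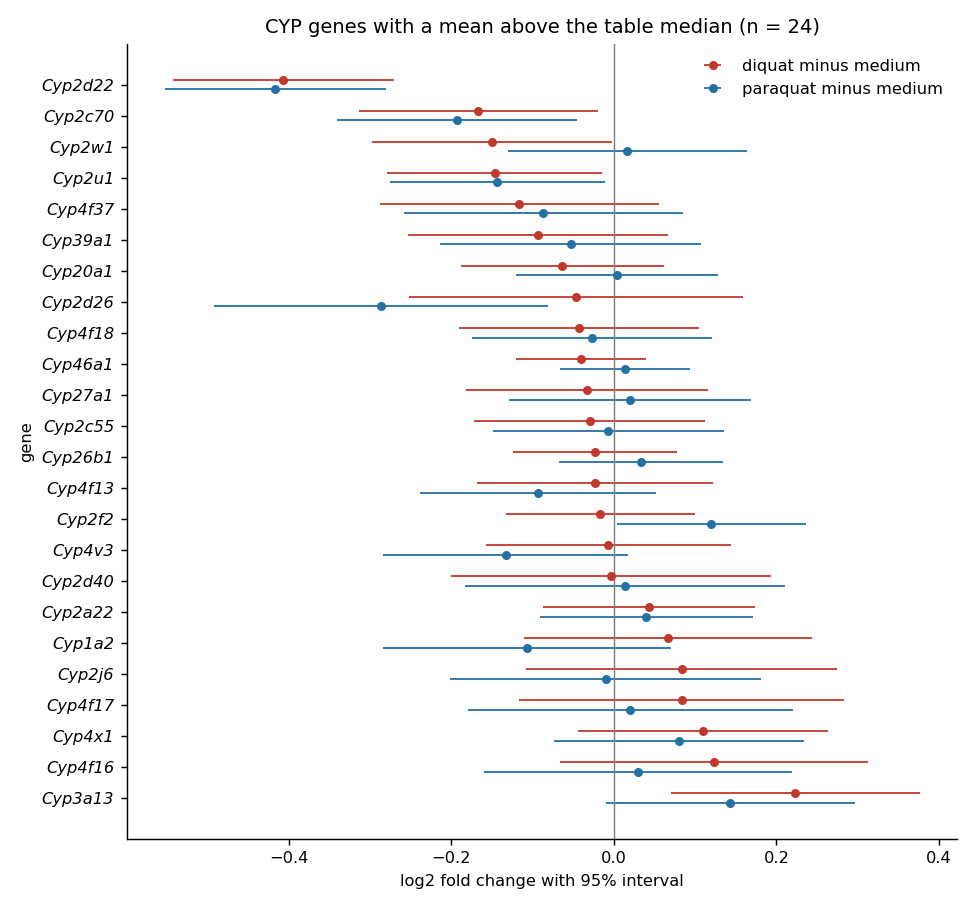
Points give the log2 fold change (x axis) of the 24 CYP genes with a mean above 6, with 95% intervals, for diquat minus medium (red) and paraquat minus medium (blue), ordered by the diquat value. Cyp2d22 lies at −0.41 and −0.42, clear of 0, and Cyp3a13 lies highest at 0.22 and 0.14.

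The compounds were also set against each other, at the same time but at doses that differed 7-fold. Paraquat minus diquat gave 0 of 93 members called (limma), with 9 higher and 2 lower at an unadjusted p under 0.05, against 0% of all 22180 genes called and 5.53% higher and 5.16% lower at an unadjusted p under 0.05. Under each other setting the member count was also 0. Members' differences ran from −0.24 to 0.2667, with a median of 0.0333 beside 0.0067 over all genes, and 8 members had all paraquat arrays above all diquat arrays and 1 below, against 5.36% and 5.18%. Genes at or below 6 leaned the same way as a whole: 5911 of 9058 were higher and 2923 lower. At an unadjusted p under 0.05, 584 of them were higher and 98 lower, beside 7 and 1 of the 69 dim members. Among the 24 members above 6, 2 were higher and 1 lower, where 642 and 1047 of 13122 genes were. Whether the lean of dim genes had a part in the members' counts was not tested. For Cyp2d22 the difference was −0.01, from −0.15 to 0.13. Cyp2w1, a CYP of fetal gut and some tumours, read 6.15, 6.30 and 6.14 in medium, 6.15, 6.05 and 5.94 with diquat, and 6.16, 6.31 and 6.17 with paraquat. Its paraquat arrays lay just above the diquat arrays and overlapped the controls, with a paraquat minus diquat difference of 0.17 (limma adjusted p = 0.444). Cyp2f2, an enzyme of lung and liver that activates naphthalene, showed the same order of arrays, with a difference of 0.14 (0.434), and Cyp2e1 differed by 0.13 (0.371). A second, dimmer feature of Cyp2f2 differed by −0.01 (0.944), so its features disagreed. All 93 intervals lay inside a 1.5-fold change, and 74 lay inside a 1.2-fold change, with the limit given above for the 69 dim members.

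CYP enzymes depend on electron donors and on heme. Of 11 listed symbols of electron partners 7 were measured. The reductase Por, the ferredoxin Fdx2 (listed also under its older symbol Fdx1l) and the ferredoxin reductase Fdxr were not analysed here. With each compound 1 of the 7 rose and 0 fell (14.3%), against 7.02% (diquat) and 4.57% (paraquat) of all genes. All 7 had a mean above 6, where 11.4% and 7.53% of genes were called. The gene that rose was Cyb5r1, which encodes an NADH-cytochrome b5 reductase, a flavoenzyme family that passes electrons to cytochrome b5. It read 8.69, 8.60 and 8.70 in medium, 8.97, 8.90 and 9.02 with diquat, and 9.10, 9.05 and 9.17 with paraquat. The treated arrays were all above the controls. With diquat it rose 1.23-fold (limma adjusted p = 0.00471) and with paraquat 1.36-fold (0.000621), and both calls were kept whichever single array was left out. The other cytochrome b5 reductase measured, Cyb5r3, read 11.65 to 11.69 on all 9 arrays, and cytochrome b5 itself, Cyb5a, differed by −0.05 and −0.09.

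Of 12 listed heme genes 11 were measured, with 1 up and 2 down for diquat and 1 up and 1 down for paraquat. These were 27.3% and 18.2% of the 11, against 7.02% and 4.57% of all genes. All 11 had a mean above 6, where 11.4% and 7.53% of genes were called. This list and that of the electron partners were drawn up with earlier results of these data known. Their counts describe them and are no test. The rise was in Hmox1, the stress-inducible enzyme that breaks heme down, from 7.69 to 7.77 in medium to 8.34 to 8.57 with diquat and 8.28 to 8.34 with paraquat. Both falls were in heme synthesis. Urod, uroporphyrinogen decarboxylase, read 8.97, 8.95 and 8.94 in medium, 8.76, 8.68 and 8.72 with diquat, and 8.80, 8.77 and 8.67 with paraquat, with no overlap of treated and control arrays. It fell by 0.23 with diquat (limma adjusted p = 0.00895) and by 0.21 with paraquat (0.0199) on the log2 scale. The paraquat call ended without CON replicate 1 (0.0892), CON replicate 2 (0.0746), CON replicate 3 (0.0571), PQ replicate 2 (0.0566) or PQ replicate 3 (0.0702). Fech, ferrochelatase, which inserts iron into the porphyrin, fell by 0.22 with diquat (0.023) and differed by −0.15 with paraquat (0.121; 0.0363 without CON replicate 3 and 0.0367 with array weights). Its diquat call ended without CON replicate 1 (0.0903), CON replicate 2 (0.0963), DQ replicate 1 (0.0753) or DQ replicate 2 (0.0501), with arrays centred (0.0697) and in the fit of the groups compared (0.0718). Alas1, the rate-limiting enzyme of heme synthesis, differed by −0.13 with diquat (0.101) and −0.09 with paraquat (0.312), and its diquat difference passed with quantile normalization (0.0122).

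Transcription factors and receptors that control CYP genes were counted as a list of their own. Of 36 listed regulators 32 were measured: with diquat 5 rose and 8 fell (40.6%), and with paraquat 2 rose and 5 fell (21.9%), against 7.02% and 4.57% of all genes. The list was drawn up with earlier results of these data known, so this count describes it and is no test. Of the 32, 29 had a mean above 6, where 11.4% (diquat) and 7.53% (paraquat) of genes were called. The regulators whose calls were kept whichever single array was left out, with both compounds, were Tiparp, Pparg, Ppara, Onecut1 and Nr1h4. Onecut1, a liver-enriched factor, read 8.45, 8.55 and 8.27 in medium, 7.39, 7.25 and 7.32 with diquat, and 7.39, 7.17 and 7.41 with paraquat. Nr1h4 (FXR), the bile acid receptor that restrains Cyp7a1 and Cyp8b1, read 8.10, 8.03 and 8.07 in medium, 7.63, 7.56 and 7.74 with diquat, and 7.69, 7.60 and 7.49 with paraquat. All treated arrays of both genes were below the controls, and Nr1h4 fell by 0.42 and 0.47 on the log2 scale (limma adjusted p = 0.00221 and 0.00153).

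Receptors for fatty acids moved in opposite directions. Ppara, the receptor that drives the Cyp4a genes in liver, fell by 0.25 with diquat (limma adjusted p = 0.0115) and by 0.29 with paraquat (0.00632) on the log2 scale. Pparg, its relative best known from fat cells, went up 1.46-fold with diquat (0.000476) and 1.57-fold with paraquat (0.000207). It read 7.38 to 7.54 in medium, 7.97 to 8.10 with diquat and 8.06 to 8.22 with paraquat. None of the 6 Cyp4a genes measured was called, and their differences ran from −0.09 to 0.03 with diquat and −0.0767 to 0.0733 with paraquat. All 6 had a mean at or below 6, a level that could not be separated from background here. A further feature, shared by Cyp4a10 and Cyp4a31, is given below. At an unadjusted p under 0.05 there were also 0 of these 6 with either compound, against 21.6% and 15% of all genes. Nr1i2 (PXR) and Nr1i3 (CAR), the main xenobiotic receptors, differed by −0.20 (0.0605) and −0.10 (0.262) with diquat and by −0.15 (0.222) and 0.02 (0.915) with paraquat. The Nr1i2 diquat difference passed with the filter on dim genes (0.0382), in the fit of the groups compared (0.0234) and without PQ replicate 1 or PQ replicate 3, with adjusted p-values from 0.0176 to 0.163 over the arrays left out singly.

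Each of the other diquat calls among the regulators, Ahr included, ended when at least 1 single array was left out. Hnf4a, a master regulator of hepatocyte genes and also one of the hepatocyte markers above, read 10.77, 10.78 and 10.68 in medium, 10.56, 10.54 and 10.57 with diquat, and 10.67, 10.59 and 10.49 with paraquat. It fell by 0.19 with diquat at a limma adjusted p of 0.04999, and over the arrays left out singly that p ran from 0.0346 to 0.175. Only leaving out PQ replicate 1 or PQ replicate 3 kept the Hnf4a call. Foxa1 fell by 0.35 with diquat, a call that ended without CON replicate 3 or DQ replicate 1 (adjusted p up to 0.0609), and by 0.44 with paraquat, a call that was kept throughout. Nr5a2 fell by 0.30 and 0.38: its diquat call ended without any 1 control, DQ replicate 1 or PQ replicate 2 (up to 0.119), and its paraquat call without CON replicate 1 or PQ replicate 2 (up to 0.0704). Foxa3 fell by 0.40 with diquat, which ended without any 1 control, DQ replicate 1 or DQ replicate 3 (up to 0.116). Nr1h3 fell by 0.25 and Cebpb rose by 0.21 with diquat, and both calls ended without any 1 control, DQ replicate 1, DQ replicate 3 or PQ replicate 3 (up to 0.124 and 0.122). Ppard rose by 0.24 with diquat, which ended without CON replicate 1, CON replicate 3 or DQ replicate 1 (up to 0.0685).

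**Figure D4:**
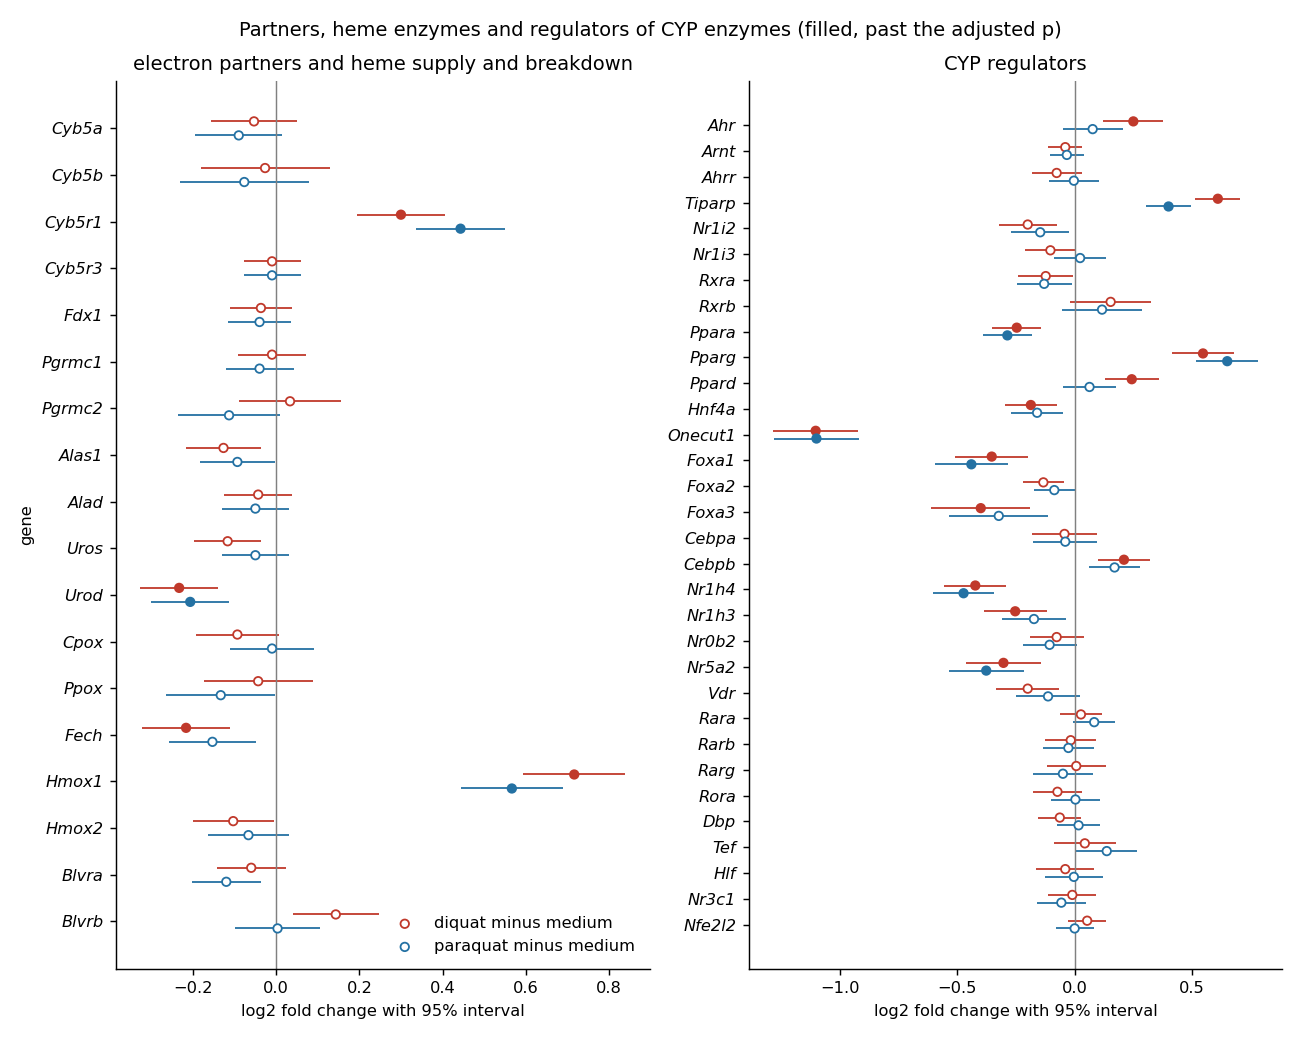
Points give the log2 fold change (x axis) with its 95% interval of the 18 measured electron partner and heme genes (left) and the 32 measured CYP regulators (right), for diquat (red) and paraquat (blue) against medium; filled points have an adjusted p under 0.05. Onecut1 lies farthest left, at −1.10 for both compounds, and Hmox1, Pparg, Tiparp and Cyb5r1 lie right of 0 for both.

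A few CYP features fell outside the 93 genes. The second features of 4 members (Cyp2c55, Cyp2c29, Cyp2f2 and Cyp11a1) and 6 features that carried a member's symbol together with others gave 0 calls with either compound in a limma fit over all 34472 features, against 4.25% (diquat) and 2.94% (paraquat) of all features. At an unadjusted p under 0.05 they gave 2 and 1, against 17.7% and 12.3%. Cyp4a10, a PPARα target, had no feature of its own. The feature shared by Cyp4a10 and Cyp4a31 read 4.95, 4.82 and 4.86 in medium, 4.80, 4.66 and 4.58 with diquat, and 4.66, 4.64 and 4.49 with paraquat. Paraquat and diquat arrays were all below the controls, and the paraquat difference was −0.28 with a limma adjusted p of 0.0627. Cyp51, the lanosterol demethylase of cholesterol synthesis, read 10.16, 10.20 and 10.12 in medium, 10.20, 10.20 and 10.45 with diquat, and 10.27, 10.21 and 10.17 with paraquat. Its differences were 0.12 (0.311) and 0.06 (0.808).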

How the data were processed

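Expression was read on 9 Affymetrix Mouse Gene 2.1 ST arrays of total RNA. The values deposited by the authors are on a log2 scale, rounded to 2 decimals. They come from Affymetrix Expression Console 1.1 and RMA per the submitters' processing notes, with settings not given in the sources used here. Detection calls and scanner files were not used, and precision is limited by the number of arrays.

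Of 34472 features, 23521 had 1 symbol, 1814 several and 9137 none in the platform annotation. Genes with several features (1082) were represented by the feature with the highest mean, which left 22180 genes. All 93 members matched RefSeq by Entrez identifier with 0 changed symbols. Read with exactly 1 digit for the family number, the member rule would leave out 14 of them.

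Groups came from the sample titles. The deposited log2 values of all 9 arrays were fitted in limma 3.58.1 (R 4.3.3; lmFit, eBayes, 1 mean per group, no covariates), and p-values were adjusted by Benjamini-Hochberg over 22180 genes. Errors beside differences are limma standard errors and intervals are 95%. The fit was also run on simulated data with independent noise and no shift shared by an array. That run therefore does not speak for the calls of dim genes. Members set for naming were those called, the 5 with the largest positive and the 5 with the largest negative difference in each contrast, and 28 fixed genes, 27 of them measured. Names outside this rule (Cyp2d40, Cyp2c55, Cyp4f13, Cyp4f17) were chosen after their values were seen. Some genes inside the rule are not described above, and none of them was called. Cyp2d11 and Cyp4b1 differed by 0.14 and 0.13 with paraquat. Paraquat minus diquat was 0.14 for Cyp4f39, 0.18 for Cyp3a44 and −0.12 for Cyp2c37. Cyp2j5 differed by −0.07 with diquat and −0.06 with paraquat, and Cyp4b1-ps2 by 0.11 with each. The members and lists were chosen with earlier results of these data known. Alternatives covered the replicate block, variance prior, dim-gene filter, centring, quantile normalization, samples in the fit, feature choice, array weights, a fold threshold of 1.2, leaving out each array and the reading of the member rule.

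Replicate numbers were checked for pairing: correlations of same-numbered deviations were 0.043, 0.075 and −0.107 between control and diquat and 0.157, 0.134 and 0.089 between control and paraquat. Between diquat and paraquat they were −0.192, 0.198 and −0.124. The numbers were not taken to pair the samples.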

Additional observations from a re-analysis of the deposited data

How the results depend on the processing

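Cyp2d22 kept both calls in every alternative except the test against a fold of 1.2. The diquat count of 4 called members was 1 with the filter on dim genes (of 24 members), 1 with arrays centred, 2 with quantile normalization, 1 in the fit of the groups compared, 0 against a fold of 1.2 and 2 with the 1-digit reading of family numbers. It ran from 1 to 4 over the arrays left out singly. The paraquat count of 1 was 2 with quantile normalization, 2 in the fit of the groups compared (1 of them higher), 4 with array weights and 0 against a fold of 1.2, and ran from 1 to 3 over arrays left out. All counts for paraquat minus diquat were 0. Over all genes the diquat count of 1558 was 959 in the fit of the groups compared and 117 against a fold of 1.2, and ran from 802 to 1908 over arrays left out. The paraquat count of 1014 was 1623 with array weights and 95 against that fold, and ran from 574 to 1197. The fitted Tiparp difference with paraquat, taken on its dimmest feature, was −0.0033 in place of 0.40. The cause of these moves was not tested, beyond the fewer genes, arrays or members that the filter, the smaller fits and the 1-digit reading hold by construction.

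With the replicate number as a block, 4 members were called with diquat (1416 of all genes), 1 with paraquat (930) and 0 between the compounds. In that fit Cyp11a1 lost its diquat call and Cyp4f14 gained one, and Hnf4a (adjusted p = 0.0503), Nr1h3 (0.0526) and Nr5a2 (0.056) lost theirs. The numbers are uncertain, because the titles and the descriptions of the treated replicates 2 and 3 disagree. Low signal over background limits what can be seen for the 69 members at or below 6.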
